A study of Mus musculus with 4 samples.

Results

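Het replicate 2 was compared with Het replicate 1, the 2 mitral valve arrays of one genotype label in a series of 4 arrays. All non-control probe sets annotated to 1 gene entered, 20380 of 22626, and they stood for 12393 genes. Each gene was read by its brightest probe set, and 7312 genes with a mean intensity of at least 62.7 over the 4 arrays were kept. The series asked how the mitral valve transcriptome depends on Fbn1, the gene of fibrillin-1, the glycoprotein of extracellular microfibrils. The wild-type array (WT) was labelled +/+, both Het arrays C1039/+ and the homozygous array (Hom) C1039G/C1039G, so the Het labels leave out the substituted residue. The labels gave no age or sex and did not say whether an array held RNA of 1 animal or of a pool. WT and Hom each had 1 array, and Fbn1 expression itself was not analysed here.

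A mitral valve leaflet is a sheet of collagen, proteoglycan and elastic fibres made by valve interstitial cells and covered by endothelium. It is anchored in heart muscle, with atrial muscle at its base and ventricular papillary muscle at the ends of its chords, and it holds resident macrophages and, in mice, pigment cells. A dissected valve can therefore carry muscle and blood along with the leaflet, and RNA from the whole piece mixes the transcripts of all these cells.

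With 1 array on each side there was no test, and the difference between the Het arrays is itself the only spread between replicates in the series. Differences are given as log2 of Het replicate 2 over Het replicate 1, and a gene is called 2-fold apart at a log2 difference of 1 or more. Where 4 intensities are listed, they are those of Het replicate 1, Het replicate 2, WT and Hom in this order, after quantile normalization. Where a list of marker genes is shifted, fewer cells of a type and less RNA per cell cannot be told apart in such bulk samples.

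Het replicate 2 read lower than Het replicate 1 for heart muscle genes and higher for most macrophage and platelet genes kept and for some red cell genes. By their brightest probe sets, all but 1 of the 41 interstitial genes kept lay within 2-fold. At least 2-fold higher in Het replicate 2 were 263 of the 7312 genes (3.6%), and 245 genes (3.35%) were at least 2-fold lower. The balance moved with the scaling of the arrays. It was 535 higher and 169 lower when arrays were scaled to a common median, which shifted the median of all genes to 0.20, and 247 higher and 345 lower with the scaling as deposited. At least 4-fold apart were 14 genes in each direction. The SD of the log2 differences was 0.55 between the Het arrays and 0.33 between Hom and WT, and 91 genes were 2-fold apart between Hom and WT.

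**Figure D1:**
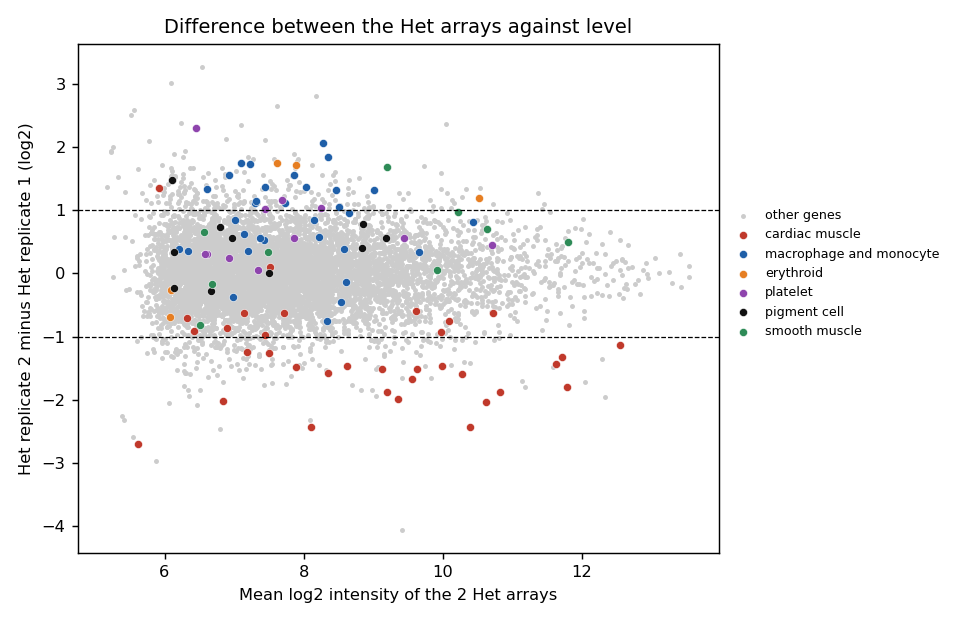
Log2 difference between the Het arrays (y axis) against the mean log2 intensity of both (x axis) for each of the 7312 genes kept; colours mark 6 of the marker lists and dashed lines mark 2-fold. Of the 34 cardiac muscle genes 32 lie below 0, with Corin at 1.35 and Tcap at 0.10 above it, and 28 of the 32 macrophage genes lie above 0.

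WT and Hom, which entered the normalization and the filter but not the difference itself, were compared with each Het array. For 3377 of the 7312 genes (46.2%) both lay nearer to Het replicate 1 than to Het replicate 2, and for 1719 genes (23.5%) both lay nearer to Het replicate 2. Among the 245 genes 2-fold lower in Het replicate 2, WT and Hom both lay nearer to Het replicate 1 for 172 (70.2%) and nearer to Het replicate 2 for 22. Among the 263 higher genes the counts were 155 (58.9%) and 48. Some higher genes passed the filter only with the Het arrays included, which favours low WT and Hom values. With the filter on WT and Hom alone 239 genes were higher and 251 lower. WT and Hom both lay nearer to Het replicate 1 for 310 of them, against 327 as reported.

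Several measures of the RNA and of the hybridisation were highest or lowest in Het replicate 2, and their part in the results was not tested. The 3' to 5' ratio of the Actb control probe sets, a measure of how complete the copied RNA was, stood at 2.19, 3.04, 2.25 and 2.16. That of Gapdh was 3.19, 4.65, 4.18 and 3.84, and that of 18S ribosomal RNA 0.643, 0.882, 0.659 and 0.629. The geometric mean of 4 hybridisation controls, with deposited intensities of 968, 326, 909 and 676, was lowest in Het replicate 2. Of the 336 genes read by a probe set of the _x_at type, which can bind several transcripts, 35 (10.4%) were 2-fold higher and 6 were lower, against 162 (3.22%) and 187 of the 5030 read by a plain _at probe set.

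The heart muscle genes were the largest block of lower genes. Of 39 listed genes 37 had a probe set and 34 were kept, and 32 of the 34 read lower in Het replicate 2, with a median of -1.45 against -0.0078 for all genes kept. At least 2-fold lower were 22 of the 34 and 1 was higher. The summed intensity of the 34 genes was 55965, 20951, 42589 and 48714. Among them, 29 had WT and Hom both nearer to Het replicate 1.

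The defining sarcomere genes shared this direction. Actc1, the alpha-actin of heart muscle, read 8892, 4058, 7059 and 7845. Tnnt2, cardiac troponin T, read 5335, 2134, 3783 and 3908, a difference of -1.32, and its other probe set gave -1.59. Myh6, the fast myosin heavy chain of the adult mouse heart, was less far apart, at 2107, 1366, 2160 and 2379 (-0.63). In each case Het replicate 2 was the lowest array. Ttn, the giant spring protein titin, read 1310, 329.9, 675.2 and 1077, and its other probe set gave -1.84. Tnni3, cardiac troponin I, read 2153, 715.8, 1808 and 1890. Mybpc3, the myosin-binding protein C of the heart, read 1344, 421.4, 1057 and 1415, and the Z-disc protein gene Actn2 read 655.9, 237.8, 578.5 and 845.7. Myom2, an M-band protein, read 124.7 in Het replicate 1, 119.7 in WT and 103 in Hom and was below the floor of 19.2 in Het replicate 2, so it was at least 6.5-fold lower there.

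Members that handle calcium or supply energy ranged widely. Pln encodes phospholamban, the small inhibitor of the calcium pump, and read 3114, 583.3, 1923 and 2283, a difference of -2.42, with its other probe sets at -2.33 and -1.83. Atp2a2, the pump itself, read 3485, 947.5, 2781 and 3448, but its 3 other probe sets ran from -2.07 to 0.49. Ryr2, the calcium release channel of heart muscle, read 230.9, 57.24, 161.2 and 230.9. Casq2, which stores calcium in the sarcoplasmic reticulum, read 1126, 308.3, 592.7 and 847.9. All 4 were lowest in Het replicate 2. Ckmt2, the mitochondrial creatine kinase of muscle, read 635.3, 118.7, 430.9 and 618.1. Mb, the oxygen-binding myoglobin, read 6587, 1891, 4432 and 5253. Fabp3, the fatty acid carrier of the heart, read 3196, 775.7, 2006 and 2823, 4.12-fold lower in Het replicate 2. Members with smaller differences, picked once their values were known, included Trdn, a partner of the calcium release channel, at -0.63, and the muscle forms of cytochrome oxidase subunits Cox6a2, Cox7a1 and Cox8b at -0.76, -0.70 and -0.62. The exceptions on the list were Tcap, a cap protein of titin, at 0.10 and Corin, the protease that activates natriuretic peptide. Corin read 37.74, 96.31, 68.1 and 88.15, higher in Het replicate 2 by 1.35 at a low level. Tcap was picked once its values were known.

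Sequence of muscle promoters is shown for the members furthest below Het replicate 1 that hold a MEF2 box or a CArG box, the motifs of 2 factor families known for driving muscle genes, in the 250 bases before the start. Each line gives 100 of those bases from RefSeq (GRCm38.p6), 5' to 3' on the strand of the gene, with the match in capitals. The stretches are chr2:76982659-76982758 on the minus strand for Ttn, chr3:102086301-102086400 on the plus strand for Casq2 and chr2:91118009-91118108 on the plus strand for Mybpc3, and all 3 matches are MEF2 boxes.
Ttn: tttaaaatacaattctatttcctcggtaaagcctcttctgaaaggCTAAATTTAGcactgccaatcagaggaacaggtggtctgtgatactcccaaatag
Casq2: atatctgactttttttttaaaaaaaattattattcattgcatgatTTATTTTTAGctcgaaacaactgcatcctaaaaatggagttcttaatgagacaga
Mybpc3: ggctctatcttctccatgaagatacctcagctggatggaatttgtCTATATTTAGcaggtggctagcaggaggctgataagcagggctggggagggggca
Of the 34 cardiac muscle genes 28 had a promoter in the table, taken as the first listed for the gene, 250 bases before to 50 bases after the start. A MEF2 box on either strand was found in 5 of the 28 (17.9%), against 3.26% of all 27025 promoters and 1.52% of the 5939 promoters of genes kept. The CArG box was found in 3 of the 28 (10.7%), against 1.57% of all promoters and 1.45% of those of genes kept. CATTCC, the MCAT motif of TEAD factors, was found in 8 (28.6%), against 14.6% of all promoters and 12% of those of genes kept. Such matches describe the letters only, and binding was not measured.

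Chamber markers did not differ as 1 block. Of the ventricular genes, Myl2, the ventricular regulatory light chain, was 3.87-fold lower, at 10209, 2635, 7608 and 8892. Myl3, the ventricular essential light chain, read 5136, 1847, 4994 and 5863, with its other probe sets at -1.60 and -0.98. Myh7, the slow myosin heavy chain, was within 2-fold at 218.8, 157.3, 227.8 and 216.6. All 3 had WT and Hom nearer to Het replicate 1. The atrial list was divided. Nppa, the atrial natriuretic peptide, read 4328, 1249, 2233 and 2100, highest in Het replicate 1 and lowest in Het replicate 2. Myl7, the atrial regulatory light chain, was higher in Het replicate 2, at 1390, 2704, 1649 and 1397 (0.96). Sln, sarcolipin, the calcium pump inhibitor of the atrium, was also higher, at 83.17, 288.9, 106.8 and 126.8, a 1.80 log2 difference. Myl4, the atrial essential light chain, hardly differed between the Het arrays, at 1525, 1516, 1925 and 1258.

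Skeletal muscle genes were mostly not measured above the filter. Of the 16 on the array 12 were below it, and 8 were at the floor on every array, among them Myh1 and Myh4, the fast myosin heavy chains of limb muscle. The 4 kept had a median of -0.33, with 0 of them 2-fold apart. Over all genes kept 3.6% were 2-fold higher and 3.35% lower, so a list of 4 would hold few such genes. Acta1, the skeletal alpha-actin, read 200.8, 112.5, 212.2 and 210.7.

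Mitochondrial genes, which heart muscle expresses at high levels, were lower as well but by less. All 15 kept of the 16 fatty acid oxidation genes except Hadh read lower, with a median of -0.76, and 5 were at least 2-fold lower. Acadm, which starts the oxidation of medium-chain fatty acids, read 1215, 385.9, 704.7 and 903.7 (-1.66). Acadl, its long-chain counterpart, was within 2-fold at 984.2, 629.6, 688.3 and 917.8. Of the 30 kept genes of oxidative phosphorylation 28 read lower, 4 of them 2-fold lower, with a median of -0.62. With arrays scaled to a common median, where all genes were at 0.20, the medians of these lists were -0.45 and -0.35. Here probe sets of 1 gene disagreed. Ndufs4, a subunit of complex I, gave -1.53 with its brightest probe set and 0.30 and 0.70 with the others, and 7 of the 27 other probe sets of these genes lay above 0.

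Cd36 and Fitm1, both genes of lipid handling in muscle and fat, and Malat1 were among the 15 lowest genes of all. Cd36, a fatty acid transporter also found on macrophages, platelets and capillary endothelium, read 607.1, 121.5, 224.4 and 426.6. Fitm1, a protein of lipid droplet formation in muscle, read 261.8, 47.74, 183.3 and 243.3. Malat1, a long RNA kept in the nucleus, had the lowest difference of the genes above the floor on both Het arrays, at 2770, 167.5, 1715 and 810.5, which is -4.05 or 16.5-fold, and its other probe sets ran from -4.64 to -2.22. Ckmt2, Pln, Fabp3, Ryr2, Ttn, Myl2, Atp2a2 and the endothelial gene Klf2 were also among these 15. The others were the guidance receptor Neo1 (-2.97), Mov10l1 (-2.08), the chromatin remodeller Atrx (-2.05) and the folate enzyme Shmt1 (-1.93). Of the 15, 11 had WT and Hom both nearer to Het replicate 1.

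**Figure D2:**
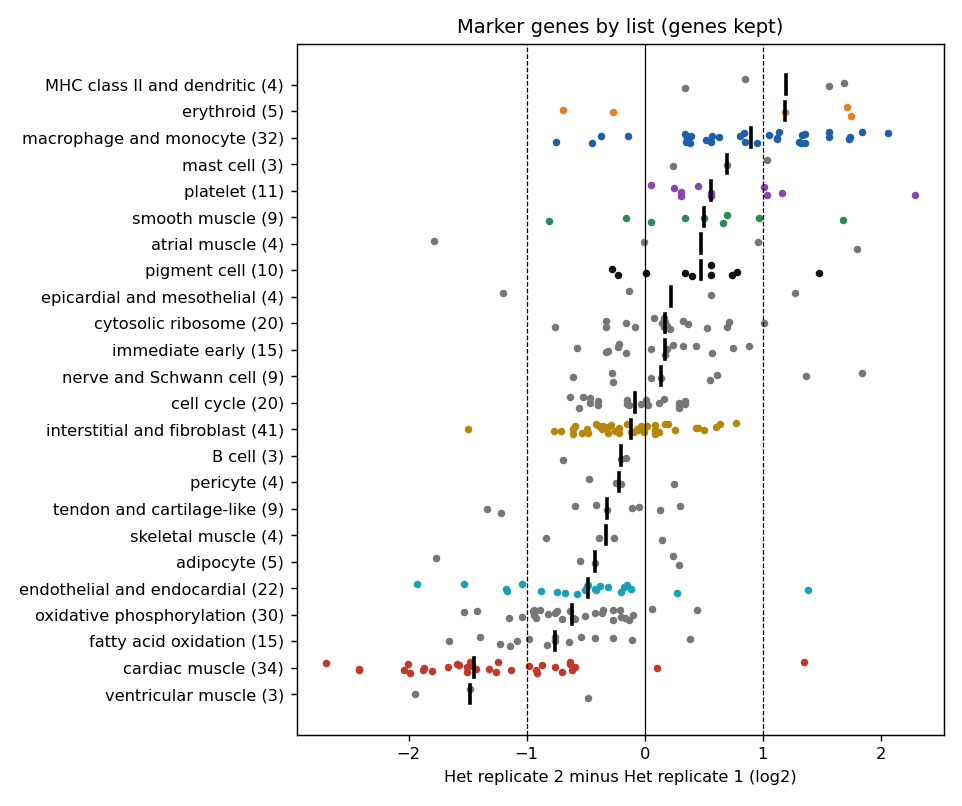
Log2 difference between the Het arrays (x axis) for each gene kept, 1 row for each marker list with at least 3 genes kept, whose number stands in brackets; black bars mark medians and dashed lines 2-fold. The cardiac muscle median is -1.45 and the macrophage median 0.90, while the interstitial median is -0.12.

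Macrophage and monocyte genes were the largest block of higher genes. All 40 listed genes had a probe set and 32 were kept. Higher in Het replicate 2 were 28 of the 32, with a median of 0.90, and 15 were at least 2-fold higher, against 3.6% of all genes, while 0 were 2-fold lower. With the filter on WT and Hom alone, 31 genes of the list were kept, with a median of 0.85 and 14 at least 2-fold higher. The summed intensity of the 32 genes was 7188, 12531, 7966 and 8118, so that WT and Hom lay close to Het replicate 1. For single genes WT and Hom were both nearer to Het replicate 1 in 23 of the 32. The heart muscle and macrophage lists kept their direction when the arrays were scaled to a common median, with medians of -1.17 and 1.21, and with the scaling as deposited, with -1.42 and 0.95.

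The defining genes differed by unequal amounts. Lyz2, the lysozyme of macrophages and neutrophils, read 325.8, 815, 319 and 344. Cd68, a lysosomal protein of macrophages, read 96.95, 173.7, 99.39 and 111.3, higher by 0.84. Csf1r, the receptor of the growth factor on which macrophages depend, read 1045, 1827, 1279 and 1319 (0.81), with other probe sets at 0.10 to 0.76. In all 3 Het replicate 2 was the highest array. Adgre1, which encodes the F4/80 antigen of tissue macrophages and was picked once its values were known, went the other way at 417.9, 248.2, 325.6 and 334.6 (-0.75). C1qa, a complement component made by tissue macrophages and also chosen afterwards, read 244.1, 362.6, 373.6 and 325.7, so Het replicate 2 did not stand above WT.

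Other members were further apart. Alox5ap, which presents arachidonic acid to the enzyme that makes leukotrienes, read 171.9, 614.9, 186.9 and 228.8, 3.58-fold higher. Tyrobp, the signalling adaptor of many myeloid receptors, read 224, 556.4, 237.2 and 268.8. Fcer1g, the common Fc receptor gamma chain, read 109, 280.6, 33.46 and 82.04, and here Het replicate 1 lay above WT and Hom as well. It passed the filter on level only with the Het arrays included, so its low WT and Hom values are partly set by the filter. Coro1a, an actin regulator of white blood cells, read 82.04, 272.5, 102.7 and 152.8, and its other probe set gave 1.06. Cd53, a tetraspanin of white blood cells, read 70.86, 209.5, 80.94 and 74.11, and the adhesion integrin chain Itgb2 read 61.77, 154.9, 81.76 and 66.65. Laptm5, a lysosomal protein of white blood cells, read 152.4, 633.7, 178.4 and 129.3 with an _x_at probe set. Its other probe sets gave -0.41 and -0.04, so the 2.06 of the brightest one was not shared.

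The upstream stretches of Laptm5 and Cd53 are shown because they belong to 2-fold higher macrophage members and hold GAGGAA, the core bound by PU.1, in the 250 bases before the start. PU.1 is a transcription factor that myeloid cells need. The stretches are chr4:130913216-130913315 on the plus strand for Laptm5, where the match is on the opposite strand, and chr3:106790150-106790249 on the minus strand for Cd53, in GRCm38.p6 from RefSeq with matches in capitals.
Laptm5: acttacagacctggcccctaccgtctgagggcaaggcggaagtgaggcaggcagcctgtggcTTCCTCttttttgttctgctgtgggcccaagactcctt
Cd53: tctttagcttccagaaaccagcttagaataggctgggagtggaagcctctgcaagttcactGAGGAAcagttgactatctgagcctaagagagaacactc
GAGGAA was found on either strand of 12 of the 23 macrophage promoters in the table (52.2%), against 28.3% of all promoters, 26.8% of those of genes kept and 8 of the 28 cardiac muscle promoters (28.6%). The MEF2 box was found in 0 of the 23. Whether any of these sites is bound was not measured.

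Laptm5 and Gp9 were the members of a list among the 15 highest genes of all, and the other 13 were on none. Lgals3, the carbohydrate-binding galectin of activated macrophages, read 78.48, 489.1, 83.2 and 92.89, 6.23-fold higher. Lyz1, a lysozyme gene of the gut whose sequence resembles Lyz2, read 467.6, 2404, 465.2 and 508.1 with a probe set of the _x_at type, so its signal and that of Lyz2 cannot be told apart. Clec7a, a receptor for fungal glucans, read 56.58, 247, 70.4 and 119.1. Cd52, a surface glycoprotein of lymphocytes and monocytes, read 83.83, 361.4, 91.34 and 139.2, and Ms4a6d and the chemokine Ccl9 gave 2.37 and 1.93. Ptgs2, the inducible cyclooxygenase of prostaglandin synthesis, was the highest at 29.92, 286.2, 18.92 and 51.13 (3.26). Het replicate 2 was the highest array for these 7. Ptgs2, Ms4a6d, Ccl9 and Gp9 passed the filter on level only with the Het arrays included, so that their low WT and Hom values are partly set by the filter. On the mean of WT and Hom alone 11 of the 15 highest and 15 of the 15 lowest genes passed. Gpaa1, a subunit of the GPI transamidase, read 109.5, 761.4, 682.9 and 749.5, so there Het replicate 1 was the array that stood apart. Mthfd1, a folate enzyme, gave 2.35 with 1 probe set and -1.26 with the other. The remaining genes of the 15 were Rnpc3 (3.01), Nacc1 (2.10), Ttc13 (1.88) and Bcs1l (1.88). For Rnpc3 and Nacc1 WT lay nearer to Het replicate 2 and Hom nearer to Het replicate 1. Nacc1 read 26.6, 113.9, 159.6 and 47.26, so WT lay above Het replicate 2. For Bcs1l both lay nearer to Het replicate 2. Of the 15, 9 had WT and Hom both nearer to Het replicate 1, and 11 had a mean intensity below 200.

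The antigen presentation genes kept were higher in Het replicate 2, with Hom between the Het arrays. All 4 kept of the 9 class II and dendritic genes on the array read higher, with a median of 1.20, which was 0.35 over all 9 without the filter. H2-Aa, a class II chain, read 472.6, 1525, 593.6 and 990.2, and its other probe set gave 1.61. H2-Ab1, another class II chain, was within 2-fold at 132.8, 167.5, 64.94 and 150.4. Cd74, the invariant chain that guides class II molecules, read 99.82, 293.3, 171 and 206.7. In all 4 WT lay nearer to Het replicate 1 and Hom nearer to Het replicate 2, and the median of Hom minus WT was 0.79. Markers of other white blood cells were scarce. None of the 13 T and NK cell genes and 1 of the 13 neutrophil genes on the array was kept. The 3 B cell genes kept had a median of -0.20, and of the 3 mast cell genes kept Cpa3, a mast cell protease, was 2-fold higher at 106.1, 218.1, 171.4 and 178.6.

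Red cell genes were few and divided. Of 20 listed genes 15 had a probe set of 1 gene and 5 were kept, of which 3 were 2-fold higher and 2 read lower, with a median of 1.19. The median was 0.00 without the filter and -0.27 after averaging the probe sets of each gene. Alas2, the first enzyme of haem synthesis in red cell precursors, read 976.9, 2230, 1074 and 1299. Its upstream stretch, chrX:150547284-150547383 on the plus strand in GRCm38.p6 from RefSeq, holds AGATAA, the motif of GATA factors, on the opposite strand (in capitals).
Alas2: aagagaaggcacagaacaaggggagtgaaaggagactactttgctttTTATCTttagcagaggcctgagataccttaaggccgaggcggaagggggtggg
AGATAA was found in 2 of the 3 red cell promoters in the table and in 11.4% of all promoters. Slc4a1, the anion exchanger of the red cell membrane, read 107.1, 360.6, 111 and 112.6, but its other probe set gave 0.29. Hbb-b2, a beta-globin with near-identical copies, read 131.6, 430.9, 184.7 and 201.5. Hba-a1, an alpha-globin, was below the filter at 37.74, 32.93, 10.65 and 24.44. Hbb-y, an embryonic beta-globin, was also below the filter, at 30.76, 131.5, 26.35 and 11.05, and Hbb-bs and Hbb-bt, the adult beta-globins, were not analysed here. The red cell membrane genes Sptb and Rhd, chosen after their values were seen, gave -0.27 and -0.69, so the list median rested on Alas2, Slc4a1 and Hbb-b2.

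Platelet genes read higher in Het replicate 2. All 11 kept of 12 on the array read higher in Het replicate 2, with a median of 0.56 and 4 at least 2-fold higher, and in all 11 WT and Hom were nearer to Het replicate 1. Filtered on WT and Hom alone, 8 genes were kept, with a median of 0.51 and 2 at least 2-fold higher. The others, Gp9 among them, passed only with the Het arrays included. Their low WT and Hom values are partly set by the filter, and so is their nearness to Het replicate 1. Ppbp, a chemokine precursor of platelet granules, read 575.3, 851.1, 71.98 and 83.42, and Pf4, platelet factor 4, read 1427, 1955, 980.4 and 739.2. Clec1b, a platelet activation receptor, read 138, 309.3, 23.17 and 45.45. For these 3 Het replicate 1 lay above WT and Hom too, so nearer does not mean close. The summed intensity of the 11 genes was 3152, 4786, 1725 and 1700, so both Het arrays lay above WT and Hom. Gp9, a subunit of the receptor for von Willebrand factor, was high in Het replicate 2 alone, at 39.51, 193, 38.16 and 74.81.

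**Figure D3:**
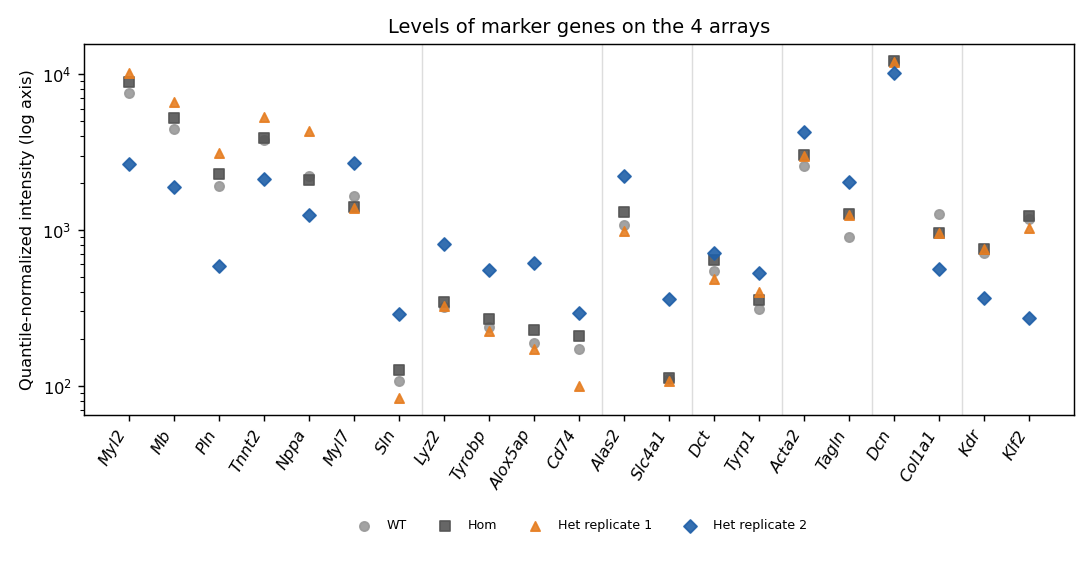
Quantile-normalized intensity on a log axis for marker genes of heart muscle, myeloid cells, red cells, pigment cells, smooth muscle, interstitial cells and endothelium, left to right, with 1 symbol for each of the 4 arrays. Het replicate 2 lies below the other 3 arrays for Myl2, Mb, Pln and Tnnt2 and above them for Lyz2, Tyrobp, Alox5ap and Alas2.

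Interstitial and fibroblast genes, the markers of the leaflet itself, were not shifted as a block by their brightest probe sets, while their other probe sets read mostly lower. Of 44 listed genes 41 were kept, with a median of -0.12 that became 0.07 when arrays were scaled to a common median, and 15 read higher and 26 lower. At least 2-fold apart was 1 gene, Ddr2, a receptor for fibrillar collagen, at 147.1, 51.91, 100.2 and 90.22. The summed intensity of the 41 genes was 87284, 80416, 101216 and 100719, so both Het arrays lay below WT and Hom. Dcn, the collagen-binding proteoglycan decorin, read 11910, 10209, 11910 and 12179. Col3a1, a fibrillar collagen, read 5351, 3266, 5637 and 4933, lower by 0.71 on the log2 scale. Col1a1, the main collagen chain of the leaflet, read 949.8, 557.8, 1264 and 960.8 (-0.77), and its other probe set gave -1.44. Het replicate 2 was the lowest array for these 3. Of the 33 other probe sets of interstitial genes 26 lay below 0, 6 of them 2-fold lower, with a median of -0.39. Over the 3083 other probe sets of all genes 192 were 2-fold lower and the median was -0.05. Tendon and cartilage genes, which valves share, had a median of -0.32 in 9 kept genes. In that list Col11a1, a minor cartilage collagen, read 109.2, 46.92, 176.2 and 113.6, and Tnmd, tenomodulin, read 70.57, 46.76, 143.3 and 48.4.

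Endothelial genes were lower in Het replicate 2 in 20 of the 22 kept, with a median of -0.48, and 5 were at least 2-fold lower and 1 higher. Scaled to a common median the list was at -0.12 where all genes were at 0.20. Klf2, a transcription factor that blood flow induces in endothelium, read 1032, 271.1, 1181 and 1226. Cdh5, the cadherin of endothelial junctions, read 311, 138.6, 282.7 and 305.2. Kdr, a receptor of vascular endothelial growth factor, read 757.5, 367.2, 706.4 and 757.3, whereas Pecam1, an adhesion molecule of endothelium and platelets, read 160.9, 145.2, 178.4 and 157.7. Nos3, the nitric oxide synthase of endothelium, read 1026, 453.7, 1016 and 782.1, and the receptor Tie1 read 229.4, 79.29, 268.8 and 141. Sox17, a transcription factor of arterial endothelium, was higher at 117.8, 307.8, 124.6 and 147.4, while its other probe set gave 0.21. In 17 of the 22 genes WT and Hom were both nearer to Het replicate 1.

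Pigment cell genes were modestly higher. Of 14 on the array 10 were kept, 8 of them higher, with a median of 0.48, and 1 was 2-fold higher. Dct, an enzyme of melanin synthesis, read 480.6, 706.2, 545.6 and 639.8, so Hom lay nearer to Het replicate 2. Tyrp1, a related melanin enzyme, read 398.7, 527.6, 309 and 352.2, and its other probe sets gave 0.65 to 1.34. Tyr, tyrosinase, the rate-limiting enzyme of melanin synthesis, read 103.4, 152.8, 108.9 and 154. In 3 of the 10 genes WT and Hom were both nearer to Het replicate 1, against 46.2% of all genes. Gpnmb, the gene that was 2-fold apart, is a melanosome glycoprotein that macrophages also make, and read 41.46, 115.4, 67.7 and 96.42.

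Smooth muscle genes were higher by a similar amount by their brightest probe sets, but most of their other probe sets were not. Of 16 on the array 9 were kept, 7 of them higher, with a median of 0.50. Acta2, smooth muscle alpha-actin, which activated interstitial cells also make, read 3000, 4242, 2559 and 3023. Tagln, an actin-binding protein of smooth muscle, read 1254, 2037, 897.4 and 1265. Myh11, the smooth muscle myosin heavy chain and the defining marker of mature smooth muscle, was at the floor on every array. Tpm2, a tropomyosin, was the 2-fold higher gene at 326.4, 1049, 320.6 and 206.7, but its other probe sets ran from -0.19 to 0.91. Of the 5 other probe sets of smooth muscle genes 4 lay below 0, with a median of -0.11. Averaging every probe set of a gene put the list median at 0.09, and without the filter it was 0.10. Below the filter, Cnn1 was 2-fold higher (1.73), while Itga8 (-1.19) and Pcp4 (-1.06) were 2-fold lower. The 4 pericyte genes kept had a median of -0.22 by their brightest probe sets, with 0 of them 2-fold apart. At the shares over all genes, 3.6% higher and 3.35% lower, a list of 4 would hold few such genes. The 2 other probe sets of pericyte genes lay below 0, 1 of them 2-fold lower, with a median of -0.81.

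**Figure D4:**
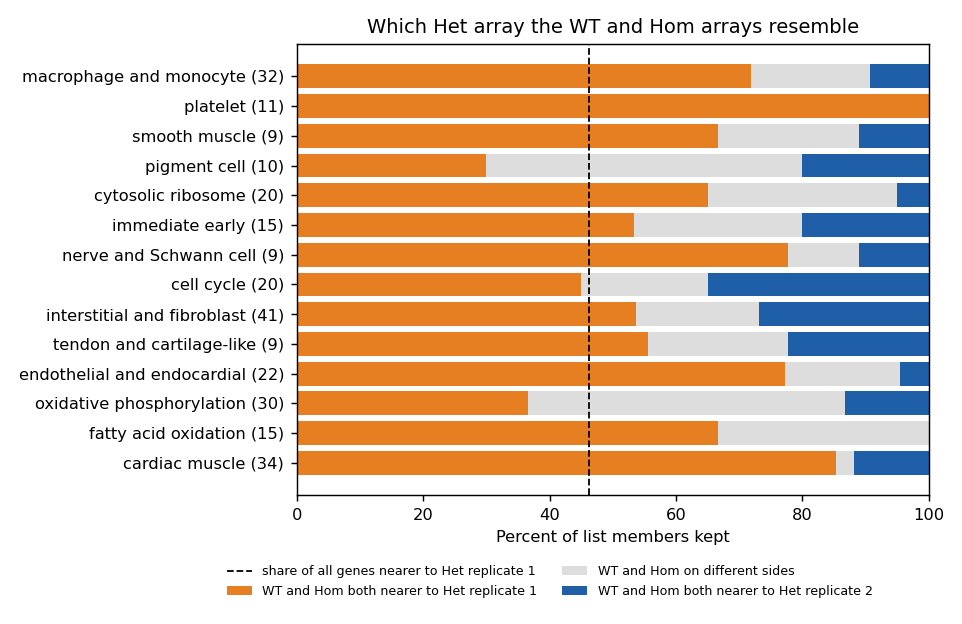
Percent of the genes kept in each list (number in brackets, lists with at least 9) for which WT and Hom both lie nearer to Het replicate 1, lie on different sides, or both lie nearer to Het replicate 2. The dashed line marks the 46.2% of all genes, and cardiac muscle with 29 of 34, macrophages with 23 of 32 and pigment cells with 3 of 10 lie on different sides of it.

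Of the other lists, the adipocyte list had 1 of 5 genes kept 2-fold lower, and the epicardial list 1 of 4 higher and 1 lower. Over all genes kept 3.6% were 2-fold higher and 3.35% lower. Of the defining adipocyte genes Adipoq was at the floor on every array, while Fabp4, a fatty acid carrier of fat cells that endothelium and macrophages also make, read 764, 224, 750.6 and 848.7. Of the epicardial genes Wt1 and Msln were at the floor on every array. Among the 4 kept, Gpm6a, a membrane glycoprotein, was higher at 50.17, 121.2, 44.48 and 67.25, and Krt18, a keratin of simple epithelia, was lower at 180.2, 78.5, 73.07 and 92.56. The nerve and Schwann cell list had 2 genes 2-fold higher of 9, the myelin enzyme Cnp (1.84, other probe set -0.32) and the growth cone protein Gap43, at 46.63, 120.7, 58.98 and 47.42. Gap43 and Gpm6a passed the filter only with the Het arrays included, which favours low WT and Hom values. With the filter on WT and Hom alone, the nerve list had 1 of 8 genes higher, and the epicardial list 0 of 2 higher and 1 lower. Among 20 cell cycle genes and 15 immediate early genes, which respond to handling and stress, 0 were 2-fold apart by their brightest probe sets. Of the 20 cytosolic ribosome genes 1 was 2-fold higher. Lists of this size would hold few such genes at the shares over all genes. Of 16 other probe sets of the cell cycle genes 2 were 2-fold higher and 1 lower. Of 12 other probe sets of the ribosome genes 10 lay above 0, 2 of them 2-fold higher, and 0 of 3 immediate early ones were 2-fold apart. Median differences of these 3 lists were -0.08, 0.17 and 0.17, and with the scaling as deposited they were 0.04, 0.07 and -0.07, so 2 of the 3 changed sign.

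The lists named only a part of what differed. Of the 317 listed genes kept, 34 were 2-fold higher and 44 were 2-fold lower, so 263 and 245 genes in all include many that no list holds. Of the higher genes 65.8% had a mean intensity below 200, as had 48.2% of the lower genes and 52.7% of all genes kept. Other probe sets of the same gene were on the same side for 53 of 88 (60.2%) when the brightest was 2-fold higher, and for 90 of 118 (76.3%) when it was 2-fold lower. In the cardiac muscle list 10 of 12 other probe sets lay below 0, 9 of them 2-fold lower, and in the macrophage list 8 of 11 lay above 0, 3 of them 2-fold higher.

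**Figure D5:**
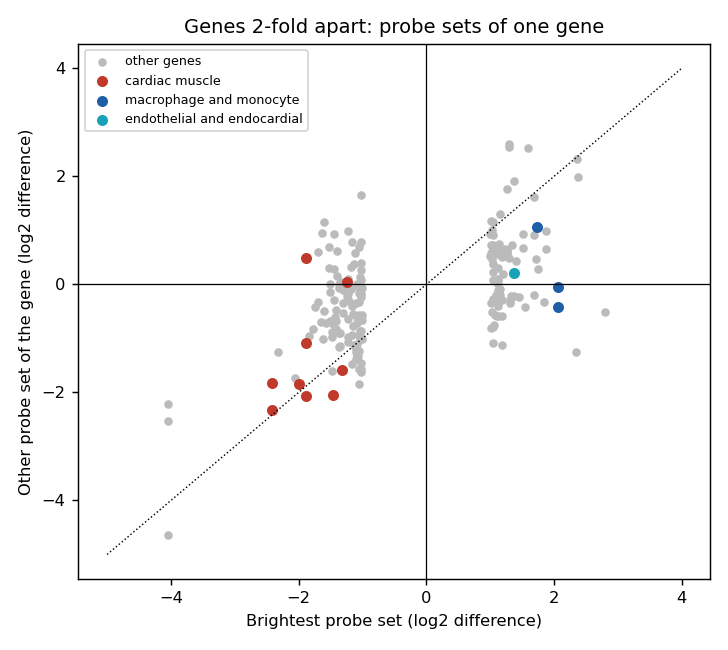
For genes 2-fold apart by their brightest probe set (x axis, log2 difference between the Het arrays), the difference by every other probe set kept of that gene (y axis); the dotted line marks equality. Points in the lower left and upper right share a direction, as 90 of 118 and 53 of 88 do, and the 3 points near -4.05 on the x axis are Malat1.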

How the data were processed

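Total RNA of mouse mitral valve had been measured on 4 single-colour oligonucleotide arrays, 1 WT, 2 Het and 1 Hom, grouped by the labels. For each of 22690 probe sets a linear intensity was deposited. The trimmed mean was 150.1 on each deposited array, with medians of 54 in Het replicate 2 and 63.7 to 65.5 elsewhere. The sources used here do not name the software. The members and gene lists were chosen with earlier results of these data known.

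The 64 control probe sets were left out and the 4 arrays were quantile normalized together. Values were floored at the 25th percentile, an intensity of 19.2, and log2 transformed. The floor makes a fold of a dimmer gene a lower bound. Gene names came from the platform annotation, and symbols were updated by gene identifier, of which 20364 matched the RefSeq table; 691 probe sets with several genes were left out. A gene was kept when its brightest probe set had a mean over the 4 arrays of at least 62.7, the median probe set. The 26 gene lists are described by counts and medians beside those of all genes.

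The named genes are the 15 highest and 15 lowest differences above the floor on both Het arrays, the first 3 members of each list and members 2-fold apart. Hadh and the others said to be chosen after their values were seen fall outside this rule. With 1 array on each side no test was possible, and precision is limited by the number of arrays. The scripts were tested on simulated data. Alternatives were other scalings, filters, floors, probe set rules and fold limits. Python 3.11.15 with numpy 2.4.6, pandas 2.3.3 and matplotlib 3.10.9 was used.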

Additional observations from a re-analysis of the deposited data

How the results depend on the processing

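The cardiac muscle median ran from -1.47 to -1.17 and the macrophage median from 0.83 to 1.21 over 10 alternatives of scaling, filter, floor and probe set rule. The counts of genes apart depended on the settings. Genes 2-fold higher, lower, and 2-fold apart with WT and Hom both nearer to Het replicate 1 (327 of 508 as reported) numbered 505, 440 and 499 with no filter on level, 105, 142 and 184 with the filter at the 75th percentile, and 433, 437 and 543 with each probe set on its own. With arrays scaled to a common median 535 genes were higher and 519 lay nearer to Het replicate 1. At a 1.5-fold limit the counts were 905, 918 and 1055, and at 4-fold 14, 14 and 17. The red cell median of 1.19 was 0.00 without the filter, -0.27 after averaging all probe sets of a gene and 0.74 with each probe set on its own. Scaled to a common median, the interstitial median was 0.07 and the pigment cell median 0.73; with each probe set on its own the interstitial median was -0.29. The smooth muscle median was 0.10 without the filter, 0.09 after that averaging and 0.20 with each probe set on its own. Reversed were also the epicardial median, 0.22 as reported and -0.66 with the filter on WT and Hom alone, and the immediate early median, 0.17 as reported and -0.11 after the averaging. The cause of these shifts was not tested. No paired analysis was possible because 1 array was set against 1 array, and leaving out either leaves no comparison. Signal over background limits the comparison of dim genes, and 52.7% of the genes kept had a mean intensity below 200.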

Other observations

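Genes outside the lists, chosen after their values were seen, are given here as examples. Because of that choice, the place of Het replicate 2 among the arrays on them is no further support. In the order Het replicate 1, Het replicate 2, WT and Hom, S100a4, a calcium-binding protein of motile cells, read 583.9, 1753, 363.5 and 347.5, and its relative S100a6 read 633.6, 1594, 621.8 and 793.9. Timp1, an inhibitor of matrix proteases, read 1711, 4133, 1037 and 1705. Ccn2, a matrix protein induced by TGF-beta, read 813.9, 2055, 804.7 and 949.8. Ccl2, a chemokine that attracts monocytes, read 136.3, 360.8, 78.18 and 206.4, and Selp, the adhesion selectin of platelets and endothelium, read 73.96, 228.1, 100.5 and 128.6. Srgn, the granule proteoglycan of blood cells, read 200.5, 591.3, 309.3 and 233.2. Het replicate 2 was the highest array for all 7 of these genes.

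Lower in Het replicate 2 was ND5, a complex I subunit encoded by the mitochondrial genome, at 7671, 2340, 4933 and 6439. Mdh1, the cytosolic malate dehydrogenase, read 4058, 1248, 3222 and 3493 by its brightest probe set (-1.70), while its other probe sets gave 0.60 and -0.33. Kcne1, a subunit of a cardiac potassium channel, read 340.3, 102.8, 397.1 and 408.2. Ppargc1a, a coactivator of mitochondrial genes, read 135.1, 45.55, 111.1 and 105.7 (-1.57), with its other probe set at -0.72. Notch1, a receptor that valve endothelium needs, read 898.5, 321.9, 619.4 and 625.1, with its other probe set at -0.88. Hnrnph1, a splicing factor, read 1621, 517.2, 1310 and 1112 (-1.65), with its other probe set at -0.70. Het replicate 2 was the lowest array for each of them.

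Over 2168 genes with more than 1 probe set kept, the 3083 dimmer probe sets differed from the brightest by a median of -0.06 between the Het arrays and -0.02 between Hom and WT. Probe sets with no gene name were 2-fold higher in 28 (5.35%) and 2-fold lower in 23 (4.4%) of 523 kept. Of the 10395 kept probe sets of 1 gene, 4.17% were higher and 4.2% lower. Of the 395 kept probe sets of several genes, 22 (5.57%) were higher and 6 (1.52%) lower.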
